A study of Mus musculus with 12 samples.

Results

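Glycolysis, lactate export and the response to low oxygen are described here through 33 genes chosen by name for their known place in these pathways. The choice was made with earlier results of these data known, so shares of calls beside those of all genes only describe this set. All 33 were found in a table of RNA from CD11c cells of mouse lymph nodes, where 52355 genes had a transcript, and all 33 were among the 23729 genes with enough counts to be tested. They divide into 3 glucose transporters, 3 hexokinases, 9 genes of upper glycolysis, 6 of lower glycolysis, 4 of lactate, 2 pyruvate dehydrogenase kinases and 6 of the hypoxia response.

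The 12 RNA libraries, 4 in each of 3 groups, were made from CD11c cells of the inguinal lymph node. TdLN_CD40 libraries came from nodes draining a subcutaneous KPC tumor in mice that received a CD40 agonist. TdLN libraries came from such nodes without the agonist, and Healthy_iLN libraries from mice without tumor or agonist. KPC cells model pancreatic carcinoma in the mouse, and CD40 is a receptor through which T cells and therapeutic agonists activate antigen-presenting cells. The sources used here do not give strain, sex, age, agonist dose or schedule, a control injection for the untreated tumor group, cell purity, or whether animals were pooled. Separate animals are not stated either, and the p-values therefore reflect only how far these samples differ, part of which may be technical. Because the libraries are bulk RNA, fewer cells of a type and less RNA per cell cannot be told apart.

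Sample titles begin with a prefix that recurs once in every group, and replicates 1 to 4 are numbered by it. Libraries held 32626784 to 56320661 estimated counts. The markers of the labelled cells were present throughout: Itgax, which encodes CD11c, stood at 641 to 921 CPM in TdLN_CD40, 751 to 1129.7 CPM in TdLN and 647 to 1090.1 CPM in Healthy_iLN libraries, and the dendritic cell genes Flt3 and Zbtb46 were at 132 CPM or more in every library. Malat1, a nuclear noncoding RNA, was higher in prefixes 1 and 2 than in prefixes 3 and 4, by 2.22-fold in TdLN_CD40, 2.47-fold in TdLN and 2.71-fold in Healthy_iLN libraries. Over all genes tested, the prefix held a median of 50.3% of the variance of log2 CPM and the group 19.6%. For the 33 genes, the prefix held a median of 35% and the group 41.9%.

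Glycolysis splits glucose into pyruvate, and cells with little oxygen or high demand reduce the pyruvate to lactate and export it. Hypoxia-inducible factor, made of an oxygen-regulated alpha subunit (Hif1a) and a constant partner, raises transcription of many of these genes by binding a short DNA core in their promoters. Dendritic cells, the antigen-presenting cells that carry CD11c, are known from mouse cultures to take up more glucose and release more lactate when activated.

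Values are CPM, estimated counts scaled to a common library size, and are listed in the order of prefixes 1 to 4. Each log2 fold change has its standard error (SE) beside it and, unless stated, comes with its adjusted p from the quasi-likelihood test of edgeR without a term for the prefix. Calls required an adjusted p under 0.05 (Benjamini-Hochberg, over all genes). A second fit with the prefix as a block, which compares libraries within a prefix, is given where it changes a call. The range over alternatives is that of the adjusted p over 19 other fits, the blocked one among them.

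Between TdLN_CD40 and TdLN libraries, Pfkfb3 rose and Slc2a3 and Aldoc fell. That made 1 gene higher (3.03%) and 2 lower (6.06%) of 33, where 1.85% of all genes were higher and 0.83% lower, and 2.68% were called in either direction. The median log2 fold change was 0.02 for the 33 genes and 0.02 for all genes. Without TdLN replicate 3 the median of the 33 genes was 0.37. With the block, 6 were higher (18.2%) and 5 lower (15.2%), against a background of 6.74% higher, 6.58% lower and 13.3% in either direction. Every TdLN_CD40 library lay above every TdLN library for 3 genes and below for 2, where 4.86% of all genes lay above and 3.4% below. Leaving out TdLN_CD40 replicate 1, TdLN_CD40 replicate 2, TdLN replicate 3 or TdLN replicate 4 left 1 call each without the block, which was Pfkfb3.

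None of the 33 genes passed between TdLN and Healthy_iLN libraries, where 0.198% of all genes were called, 0.181% higher and 0.0169% lower. By unadjusted p under 0.05 there were 8 such genes of 33, beside 1842 of all 23729, and DESeq2 called 1 (Slc16a3) and limma voom none. Log2 fold changes were positive for 27 genes and negative for 6, with a median of 0.30 beside -0.02 for all genes. The median was 0.10 without TdLN replicate 3. With the block 7 genes were higher (21.2%) and none lower, against a background of 4.02% higher, 2.28% lower and 6.3% in either direction. That count rested on single libraries: it was 2 without TdLN replicate 3, 1 without Healthy_iLN replicate 1 and 0 without Healthy_iLN replicate 3. It was 3 without TdLN replicate 1 or TdLN replicate 4, and 4 without TdLN replicate 2, Healthy_iLN replicate 2 or TdLN_CD40 replicate 2. Every TdLN library lay above every Healthy_iLN library for 3 genes and below for none, where 2.57% of all genes lay above and 1.69% below.

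Between TdLN_CD40 and Healthy_iLN libraries 8 genes rose (24.2%): Pfkfb3, Aldoa, Tpi1, Gapdh, Pgk1, Eno1, Slc16a3 and Hif1a. Slc2a3 and Aldoc fell (6.06%). Of all genes, 6.28% were called, 4.25% higher and 2.03% lower. The median log2 fold change was 0.42 for the 33 genes and -0.03 for all genes. With the block 14 were higher (42.4%) and 4 lower (12.1%), against a background of 11.7% higher, 8.46% lower and 20.1% in either direction. In 13 genes every TdLN_CD40 library lay above every Healthy_iLN library and in 2 below, where 7.6% of all genes lay above and 4.75% below. Single libraries set the count without the block: it was 3 without TdLN_CD40 replicate 3 or Healthy_iLN replicate 1, 4 without Healthy_iLN replicate 3, 5 without TdLN_CD40 replicate 4 and 6 without Healthy_iLN replicate 2. With the block it stayed between 16 and 20. This comparison shares its libraries with the other 2, so the 3 sets of values are not independent. As the 33 genes were chosen with earlier results known, their shares beside those of all genes are not a test of the set.

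**Figure D1:**
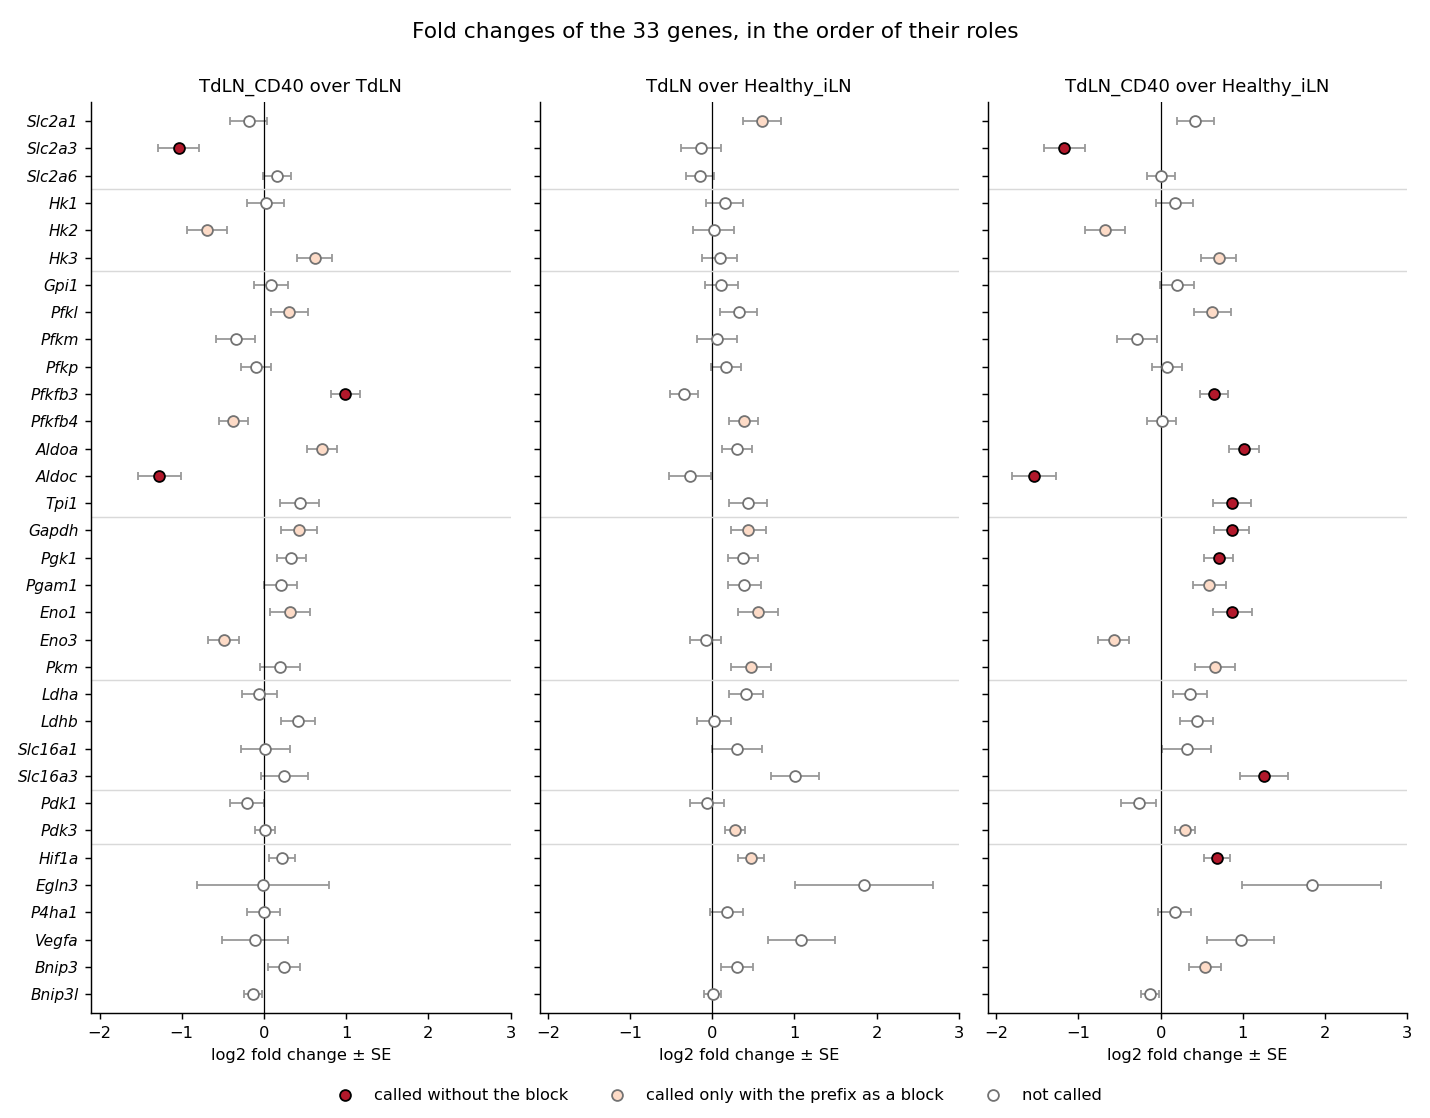
Log2 fold change with its SE (horizontal axis) of each of the 33 genes (vertical axis, in the order of their roles with lines between roles) in the 3 comparisons, from the fit without the block. Dark points are genes called without the block and pale points those called with it and not without it: 3 genes are dark between TdLN_CD40 and TdLN, none between TdLN and Healthy_iLN, and 10 between TdLN_CD40 and Healthy_iLN.

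**Figure D2:**
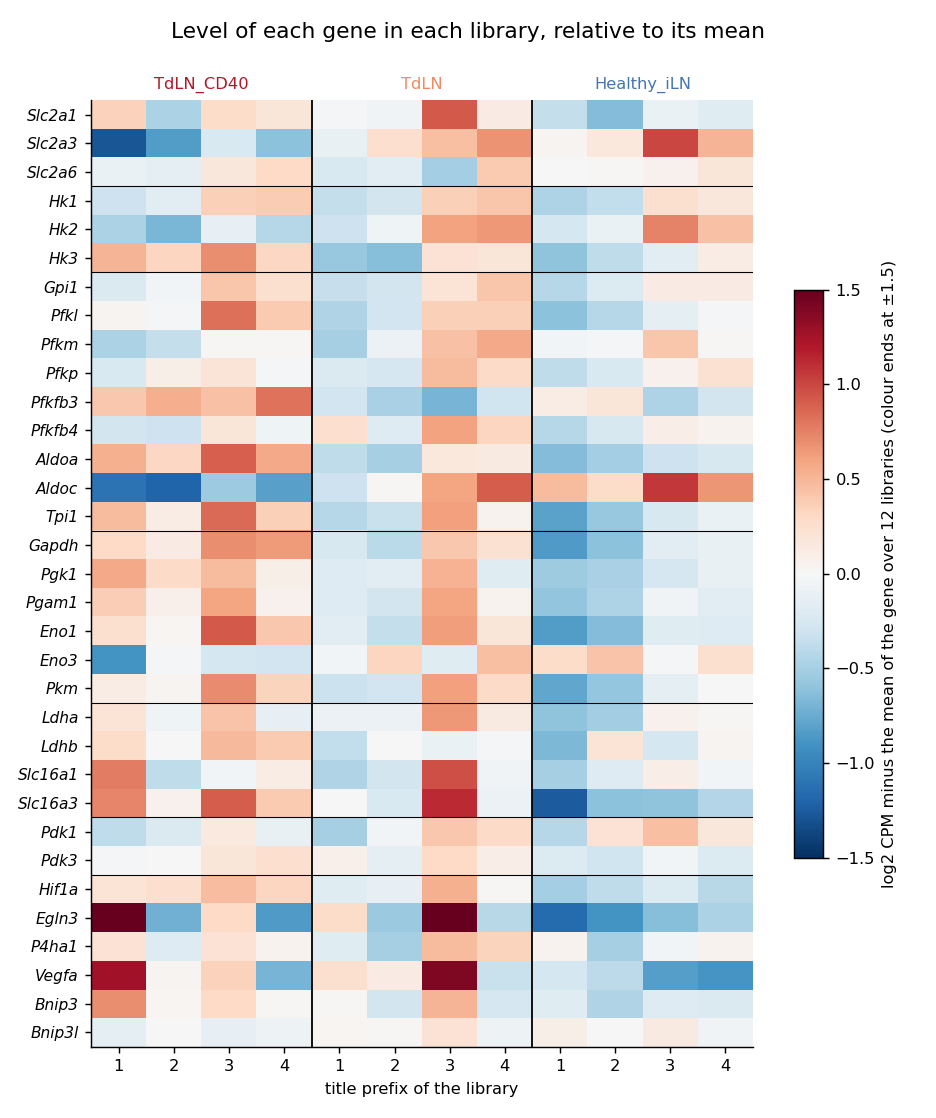
Level of each gene (rows) in each library (columns, prefixes 1 to 4 within a group) as log2 CPM minus the mean of that gene over the 12 libraries; red is above and blue below it. Slc2a3, Hk2, Aldoc and Eno3 run opposite to Aldoa, Gapdh, Pgk1 and Eno1 between TdLN_CD40 and Healthy_iLN columns, and TdLN replicate 3 stands apart from the other TdLN columns for many genes.

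The promoters of 5 genes are printed because they span the ways in which the genes moved: Pfkfb3 rose in TdLN_CD40 over TdLN libraries, Aldoc fell, Aldoa, an isozyme of Aldoc, and Pgk1 rose over Healthy_iLN libraries, and Ldha, a textbook hypoxia target, was not called. Each is 300 bases around a RefSeq gene start on build GRCm38.p6, 5′ to 3′ on the strand of the gene, with the start nearest to the transcript with the most counts chosen where there are several. Capitals mark the core letters bound by hypoxia-inducible factor, ACGTG and GCGTG, searched on both strands, so that CACGT and CACGC are marked too.
Pfkfb3: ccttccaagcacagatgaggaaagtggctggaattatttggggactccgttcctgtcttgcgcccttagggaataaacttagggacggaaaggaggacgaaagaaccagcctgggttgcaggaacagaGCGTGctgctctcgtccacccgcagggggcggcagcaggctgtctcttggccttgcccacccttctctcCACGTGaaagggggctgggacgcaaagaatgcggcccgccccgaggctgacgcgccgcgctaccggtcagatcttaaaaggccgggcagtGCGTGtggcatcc
Aldoa: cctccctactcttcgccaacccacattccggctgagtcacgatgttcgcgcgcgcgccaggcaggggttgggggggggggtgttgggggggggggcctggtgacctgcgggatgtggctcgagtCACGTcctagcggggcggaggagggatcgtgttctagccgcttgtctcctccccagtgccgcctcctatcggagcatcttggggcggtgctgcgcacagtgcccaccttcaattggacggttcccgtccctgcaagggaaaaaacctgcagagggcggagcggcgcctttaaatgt
Aldoc: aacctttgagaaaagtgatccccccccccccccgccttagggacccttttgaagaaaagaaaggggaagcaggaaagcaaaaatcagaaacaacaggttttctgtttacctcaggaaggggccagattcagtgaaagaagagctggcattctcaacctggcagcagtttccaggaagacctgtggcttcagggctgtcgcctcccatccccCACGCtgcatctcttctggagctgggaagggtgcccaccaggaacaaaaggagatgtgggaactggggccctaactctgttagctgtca
Pgk1: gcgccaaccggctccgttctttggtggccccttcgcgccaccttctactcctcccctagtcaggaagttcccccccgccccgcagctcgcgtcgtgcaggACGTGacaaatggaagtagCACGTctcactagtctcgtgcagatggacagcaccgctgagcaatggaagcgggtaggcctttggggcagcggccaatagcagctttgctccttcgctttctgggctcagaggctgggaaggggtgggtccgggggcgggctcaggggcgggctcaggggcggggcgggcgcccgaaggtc
Ldha: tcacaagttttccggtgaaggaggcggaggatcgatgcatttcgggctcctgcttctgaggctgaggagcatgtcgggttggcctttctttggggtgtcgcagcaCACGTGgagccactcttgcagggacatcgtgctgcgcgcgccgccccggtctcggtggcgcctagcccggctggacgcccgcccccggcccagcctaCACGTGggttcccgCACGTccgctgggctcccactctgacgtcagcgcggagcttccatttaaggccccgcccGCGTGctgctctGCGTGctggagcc
These lie at chr2:11502041-11502340, minus strand (Pfkfb3), chr7:126799205-126799504, minus strand (Aldoa), chr11:78323948-78324247, plus strand (Aldoc), chrX:106186850-106187149, plus strand (Pgk1) and chr7:46845554-46845853, plus strand (Ldha). ACGTG stands in the windows of Pfkfb3 (2 matches), Aldoa (1), Pgk1 (2) and Ldha (5), and not in that of Aldoc. GCGTG stands in those of Pfkfb3 (2 matches), Aldoc (1) and Ldha (2), and not in those of Aldoa and Pgk1. Each of the 5 windows thus holds at least 1 of the core words. The palindrome CACGTG, which is also the core of the E-box bound by MYC and related factors, counts as 2 matches, 1 on each strand, and occurs once for Pfkfb3 and at 2 places for Ldha.

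Promoters were found for 31 of the 33 genes, without Slc2a3 and Bnip3l. The window counted for Hk1 lies 17941 bases, and that for Slc16a3 587 bases, from the 5′ end of the transcript with the most counts, beyond the window's own length. Both hold a match and are counted below. ACGTG was present in 18 of the 31 (58.1%) and in 6447 of all 32851 promoters of the same length (19.6%), and GCGTG in 19 of 31 (61.3%) and in 32.4% of all. Of the 14 genes higher in TdLN_CD40 than in Healthy_iLN libraries with the block, 10 held ACGTG (71.4%). It was present in 1 of the 3 lower genes with a promoter (33.3%) and in 7 of the 14 others (50%). For GCGTG the shares were 50%, 66.7% and 71.4%. These are matches of letters, not binding sites, and a window without a match says only that these letters are absent from it. The genes were chosen from pathways that hypoxia-inducible factor is known to raise. Their shares beside those of all promoters are therefore not a test.

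Glucose enters through transporters of the SLC2 family. Slc2a3, which encodes the high-affinity transporter GLUT3 (chr6:122727809-122801640 on GRCm38, as are the positions that follow), had 19.6, 26.7, 40.6 and 31.1 CPM in TdLN_CD40 libraries, 44.3, 56.7, 65.4 and 76.3 CPM in TdLN libraries and 49.2, 53.2, 95.4 and 68.3 CPM in Healthy_iLN libraries. All 4 TdLN_CD40 libraries lay below all 8 others, which overlapped each other. The fall was log2 fold change -1.04, SE 0.25, adjusted p = 0.0383 against TdLN libraries (0.000139 with the block, 0.000139 to 0.254 over alternatives), and the log2 ratios within prefixes were -1.17, -1.09, -0.69 and -1.30. It was log2 fold change -1.17, SE 0.25, adjusted p = 0.0103 against Healthy_iLN libraries (3.4e-05 to 0.0859 over alternatives). The call against TdLN was kept in 5 of 12 fits that each left out 1 library, and that against Healthy_iLN in 12 of 12.

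Slc2a1, which encodes the widespread transporter GLUT1, had 38.4, 21.9, 36.7 and 34.5 CPM in TdLN_CD40 libraries, 29.7, 29.4, 57.3 and 33.2 CPM in TdLN libraries and 23.6, 19.4, 28.4 and 26.7 CPM in Healthy_iLN libraries. Every TdLN library lay above every Healthy_iLN library, and the TdLN_CD40 libraries overlapped both. Against Healthy_iLN libraries TdLN libraries were called only with the block (log2 fold change 0.58, SE 0.15, adjusted p = 0.0476; 0.0476 to 1 over alternatives), and the log2 ratio without it was 0.61 (adjusted p = 0.467). The blocked call was kept in 3 of 12 fits that left out 1 library. Of its counts, 54.6% fell on protein-coding transcripts and 45.4% on 1 transcript annotated for nonsense-mediated decay (Slc2a1-204). Slc2a6, which encodes an intracellular member of the family, was not called in any comparison and ranged over 52.3 to 70.4 CPM in TdLN_CD40, 40.2 to 75.3 CPM in TdLN and 57.3 to 65.3 CPM in Healthy_iLN libraries. Of the summed TPM (a unit that corrects for transcript length) of the 3 transporters, Slc2a3 made up 35.9% ± 9.49 in TdLN_CD40, 50.7% ± 6.05 in TdLN and 53.9% ± 9.78 in Healthy_iLN libraries (SD, n = 4, as for the shares that follow).

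Hexokinases trap glucose by phosphorylation. Hk2, the inducible isozyme and a known target of hypoxia-inducible factor, had 66.3, 57.5, 84.3 and 68.6 CPM in TdLN_CD40 libraries, 74.5, 88.2, 139.7 and 144 CPM in TdLN libraries and 76.9, 86.04, 154 and 125 CPM in Healthy_iLN libraries. It was lower in TdLN_CD40 libraries within each prefix, with log2 ratios of -0.17, -0.62, -0.73 and -1.07 to TdLN and -0.21, -0.58, -0.87 and -0.86 to Healthy_iLN libraries, while prefixes 3 and 4 were higher than prefixes 1 and 2 in TdLN and Healthy_iLN. Hk3, an isozyme of myeloid cells, had 58.9, 51.9, 67.2 and 51.4 CPM in TdLN_CD40 libraries, 27.9, 26.6, 48.1 and 47.05 CPM in TdLN libraries and 27.2, 31.8, 36.8 and 44.9 CPM in Healthy_iLN libraries, and all TdLN_CD40 libraries lay above all others. Neither was called without the block in the fit of all libraries, and both were with it. For Hk2 the blocked values were log2 fold change -0.64, SE 0.12, adjusted p = 0.00635 against TdLN (0.00635 to 0.451 over alternatives) and log2 fold change -0.62, SE 0.12, adjusted p = 0.00485 against Healthy_iLN libraries (0.00485 to 0.361). Hk3 had log2 fold change 0.67, SE 0.16, adjusted p = 0.0222 against TdLN (0.0222 to 0.411) and log2 fold change 0.73, SE 0.16, adjusted p = 0.0102 against Healthy_iLN libraries (0.0102 to 0.197). Against Healthy_iLN, Hk2 was also called without the block on protein-coding transcripts alone and on prefixes 3 and 4 alone. Hk3 was also called there with DESeq2, without Healthy_iLN replicate 4 and on prefixes 1 and 2 alone, and against TdLN on prefixes 1 and 2 alone. Under the block, Hk3 against TdLN was kept in 9 of 12 fits that left out 1 library, and the other 3 calls in 12 of 12. Hk1, the housekeeping isozyme, was not called and ranged over 63.1 to 102 CPM in TdLN_CD40, 60.7 to 104 CPM in TdLN and 56.8 to 92.3 CPM in Healthy_iLN libraries, with 94.2% of its variance by prefix. Of the TPM of the 3 hexokinases, Hk2 made up 23.6% ± 1.62 in TdLN_CD40, 39% ± 2.53 in TdLN and 40.5% ± 4.73 in Healthy_iLN libraries, and Hk3 made up 38.7% ± 3.22 in TdLN_CD40, 25.9% ± 0.211 in TdLN and 26.9% ± 4.23 in Healthy_iLN libraries.

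Upper glycolysis turns glucose phosphate into triose phosphates. Its first control point is phosphofructokinase, which is activated by a fructose bisphosphate that PFKFB enzymes make and break down. Pfkfb3 (chr2:11471433-11554077), whose enzyme mainly makes it, had 865, 949.8, 885 and 1142 CPM in TdLN_CD40 libraries, 533, 467, 402 and 531 CPM in TdLN libraries and 707, 739.6, 474 and 537 CPM in Healthy_iLN libraries. The TdLN_CD40 libraries lay above all 8 others, and TdLN libraries were lower than Healthy_iLN libraries in 4 of 4 prefixes without a call (log2 fold change -0.35, SE 0.17, adjusted p = 0.672). Against TdLN libraries the rise was log2 fold change 0.99, SE 0.17, adjusted p = 0.00697 (0.000504 with the block, 5.39e-06 to 0.084 over alternatives), kept in 12 of 12 fits that left out 1 library. Against Healthy_iLN libraries it was log2 fold change 0.65, SE 0.17, adjusted p = 0.0367 (0.00332 to 0.473 over alternatives), kept in 3 of 12 such fits. Its transcript with the most counts held 37.1% of the counts of the gene. That transcript averaged 59.2 ± 19.1 TPM in TdLN_CD40, 26.6 ± 4.47 TPM in TdLN and 28.5 ± 2.68 TPM in Healthy_iLN libraries (SD, n = 4). For the whole gene the means were 363 ± 44.2 TPM in TdLN_CD40, 182 ± 45.9 TPM in TdLN and 279 ± 108 TPM in Healthy_iLN libraries. In TPM of the gene, TdLN_CD40 libraries (307 to 415) lay above TdLN libraries (127 to 234) and overlapped Healthy_iLN libraries (179 to 417).

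Pfkfb4, a related enzyme, had 25.4, 24.6, 34.8 and 29.3 CPM in TdLN_CD40 libraries, 36.3, 26.8, 46.3 and 38.2 CPM in TdLN libraries and 22.8, 25.9, 32.7 and 31.8 CPM in Healthy_iLN libraries. Within prefixes, it went the opposite way to Pfkfb3 between TdLN and each of the other groups. It was higher in TdLN than in Healthy_iLN libraries in 4 of 4 cases and lower in TdLN_CD40 than in TdLN libraries in 4 of 4. Both differences were called only with the block, at log2 fold change 0.38, SE 0.09, adjusted p = 0.0362 for TdLN over Healthy_iLN (0.0362 to 1 over alternatives) and log2 fold change -0.36, SE 0.09, adjusted p = 0.0213 for TdLN_CD40 over TdLN libraries (0.0213 to 0.783). They were kept in 5 of 12 and 8 of 12 blocked fits that left out 1 library. Mean Pfkfb4 levels were close in TdLN_CD40 (28.5 CPM) and Healthy_iLN libraries (28.3 CPM). Protein-coding transcripts held 51.3% of Pfkfb4 counts. Of the phosphofructokinase subunits, Pfkl had 84.8, 80.4, 145 and 108 CPM in TdLN_CD40 libraries, 60.0, 67.4, 105 and 105 CPM in TdLN libraries and 53.7, 61.2, 74.5 and 81.1 CPM in Healthy_iLN libraries. It was higher in TdLN_CD40 libraries within every prefix and was called only with the block, at log2 fold change 0.32, SE 0.09, adjusted p = 0.0449 against TdLN (0.0449 to 0.908 over alternatives) and log2 fold change 0.61, SE 0.10, adjusted p = 0.000881 against Healthy_iLN libraries (0.000881 to 0.47). Leaving out 1 library under the block kept the call against TdLN in 4 of 12 fits and that against Healthy_iLN in 12 of 12. Pfkp, Pfkm and the isomerase Gpi1 were not called in any comparison, with log2 fold changes between -0.34 and 0.20. Pfkp ranged over 129.9 to 175 CPM in TdLN_CD40, 129 to 212 CPM in TdLN and 117 to 178 CPM in Healthy_iLN libraries, and Pfkm, at 8.59 CPM or less in every library, was the least abundant of the 3 subunits, with a mean of 1.28 TPM in TdLN_CD40 libraries beside 59.3 TPM for Pfkp and 28.8 TPM for Pfkl.

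The 2 aldolases moved apart. Aldoa (chr7:126795234-126800751), the widespread isozyme, had 667, 572, 855 and 681 CPM in TdLN_CD40 libraries, 353, 326, 513 and 504 CPM in TdLN libraries and 293, 323, 371 and 389.5 CPM in Healthy_iLN libraries. TdLN_CD40 libraries lay above all others. The rise over Healthy_iLN libraries was log2 fold change 1.01, SE 0.18, adjusted p = 0.00383 (2.9e-05 to 0.0189 over alternatives), kept in 12 of 12 fits that left out 1 library. Over TdLN libraries it was log2 fold change 0.71, SE 0.18, adjusted p = 0.0531, and passed with the block (adjusted p = 0.000558; 0.000558 to 0.175 over alternatives), with DESeq2, with limma voom and on protein-coding transcripts alone.

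Aldoc (chr11:78322968-78327781), the isozyme best known from brain, had 4.23, 3.96, 6.27 and 5.16 CPM in TdLN_CD40 libraries, 7.33, 9.20, 13.7 and 17.1 CPM in TdLN libraries and 12.7, 11.1, 19.01 and 14.4 CPM in Healthy_iLN libraries. All TdLN_CD40 libraries lay below all others, with log2 ratios to Healthy_iLN within prefixes of -1.58, -1.48, -1.60 and -1.48. The fall was log2 fold change -1.54, SE 0.26, adjusted p = 0.00268 against Healthy_iLN (4.95e-06 to 0.0147 over alternatives) and log2 fold change -1.27, SE 0.26, adjusted p = 0.0184 against TdLN libraries (0.00039 with the block, 0.00039 to 0.248 over alternatives). It was kept in 12 of 12 and 8 of 12 fits that left out 1 library. Of the TPM of both aldolases, Aldoc made up 1.3% ± 0.192 in TdLN_CD40, 3.75% ± 0.66 in TdLN and 6.42% ± 1.67 in Healthy_iLN libraries. Aldoc counts fell on protein-coding transcripts for 57.8%, and with those alone its log2 fold change was -1.67 against Healthy_iLN and -1.61 against TdLN libraries.

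Tpi1, which interconverts the triose phosphates, had 185, 143, 238 and 169 CPM in TdLN_CD40 libraries, 99.0, 105, 204 and 137 CPM in TdLN libraries and 76.2, 89.7, 113 and 124 CPM in Healthy_iLN libraries. TdLN_CD40 libraries lay above Healthy_iLN libraries and overlapped TdLN libraries, of which replicate 3 was the highest. The rise over Healthy_iLN was log2 fold change 0.87, SE 0.23, adjusted p = 0.0397 (0.0023 with the block, 0.0023 to 0.137 over alternatives), and was kept in 5 of 12 fits that left out 1 library.

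**Figure D3:**
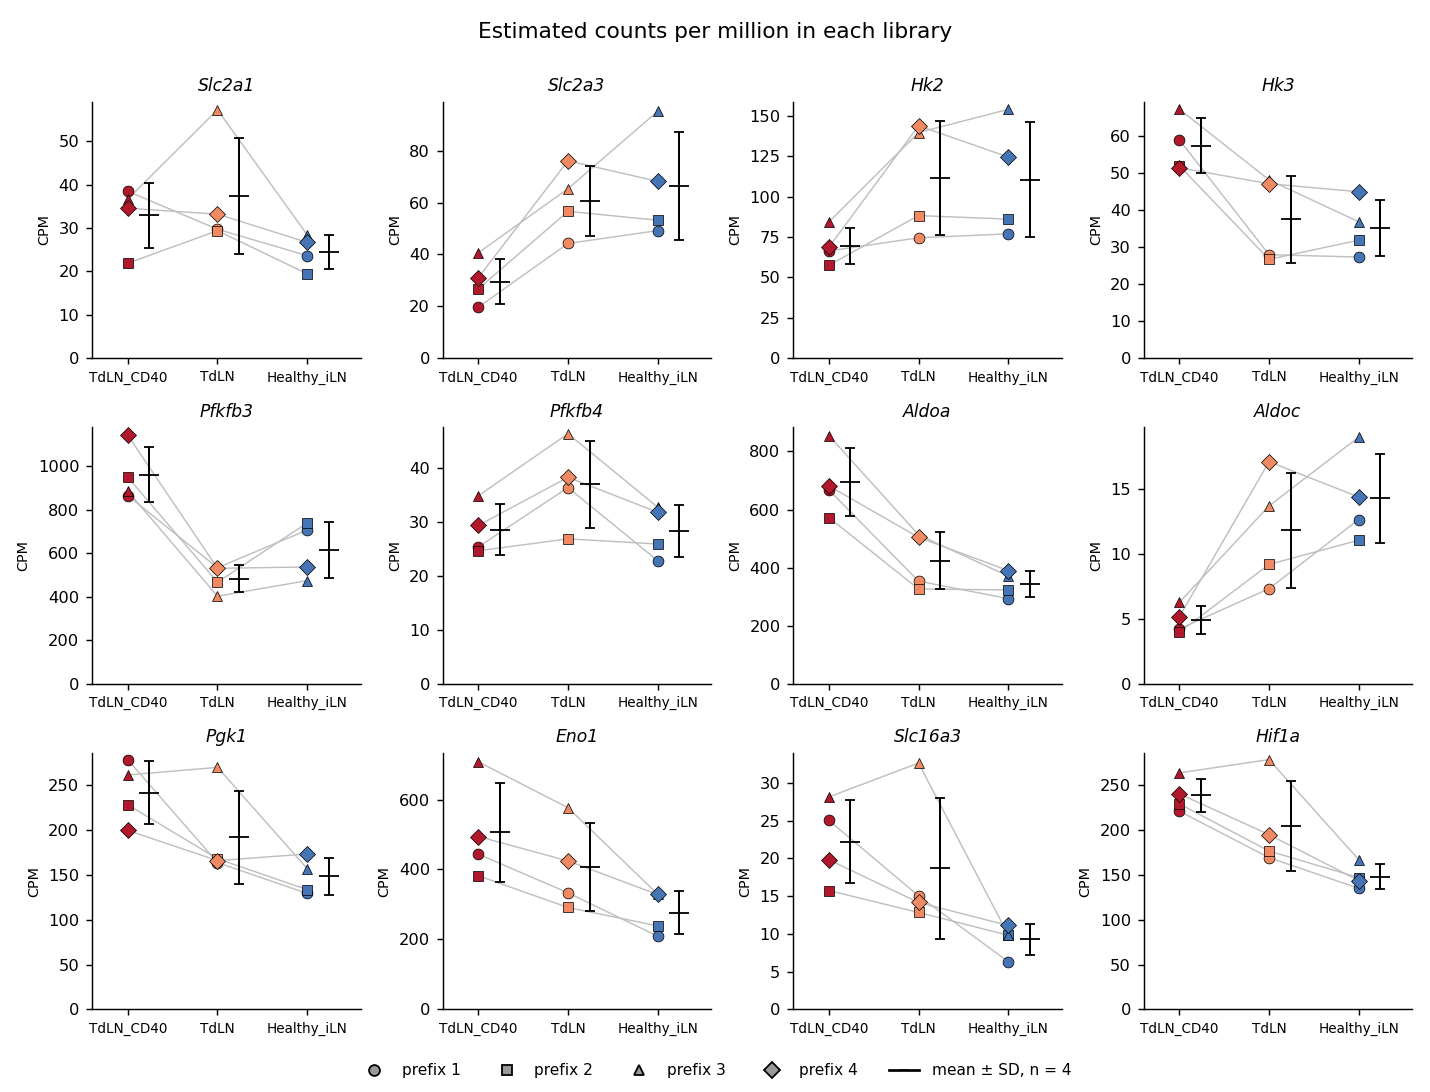
CPM (vertical axes, from 0) of 12 of the 33 genes in each library, with symbols for prefixes 1 to 4, grey lines joining libraries of a prefix and bars for mean ± SD (n = 4). Slc2a3 and Aldoc are lowest and Pfkfb3 and Aldoa highest in the TdLN_CD40 libraries, without overlap with either other group.

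Lower glycolysis takes the triose phosphates to pyruvate and yields the ATP of the pathway. Of its 6 genes, 3 rose in TdLN_CD40 over Healthy_iLN libraries, and with the block 5 were higher and Eno3 lower. Gapdh, which encodes the triose phosphate dehydrogenase, had 513, 452, 676 and 645 CPM in TdLN_CD40 libraries, 351, 315, 552 and 485 CPM in TdLN libraries and 231, 271, 369.6 and 385 CPM in Healthy_iLN libraries. Pgk1 (chrX:106187100-106203699), a phosphoglycerate kinase, had 278, 228, 261 and 199 CPM in TdLN_CD40 libraries, 164, 168, 269.7 and 166 CPM in TdLN libraries and 129, 133, 157 and 173 CPM in Healthy_iLN libraries. For both, the TdLN_CD40 libraries lay above the Healthy_iLN libraries and overlapped the TdLN libraries. Gapdh rose by log2 fold change 0.86, SE 0.22, adjusted p = 0.0288 (4.63e-05 with the block, 4.63e-05 to 0.727 over alternatives). Pgk1 rose by log2 fold change 0.71, SE 0.18, adjusted p = 0.0309 (0.0105 with the block, 0.00792 to 0.111 over alternatives). The calls were kept in 7 of 12 and 6 of 12 fits that left out 1 library.

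Most Gapdh counts did not lie on protein-coding transcripts. Those held 6.93% of them, and 60.7% fell on Gapdh-206, annotated as a retained intron. With protein-coding transcripts alone, the log2 fold change over Healthy_iLN was 0.83 with an adjusted p of 0.727. With the block Gapdh was also called in the other comparisons, at log2 fold change 0.44, SE 0.08, adjusted p = 0.00486 for TdLN_CD40 over TdLN (0.00486 to 0.766 over alternatives) and log2 fold change 0.43, SE 0.08, adjusted p = 0.0148 for TdLN over Healthy_iLN libraries (0.0148 to 1). These were kept in 12 of 12 and 8 of 12 blocked fits that left out 1 library.

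Pgam1, a phosphoglycerate mutase, had 178, 145, 209 and 144 CPM in TdLN_CD40 libraries, 121, 114, 208 and 143 CPM in TdLN libraries and 91.7, 99.8, 133 and 123 CPM in Healthy_iLN libraries. TdLN_CD40 libraries lay above Healthy_iLN libraries, with an adjusted p of 0.106 without the block and a call with it (log2 fold change 0.59, SE 0.11, adjusted p = 0.00305; 0.00305 to 0.317 over alternatives). Without the block it was also called on protein-coding transcripts alone, without TdLN replicate 3 and on prefixes 1 and 2 alone. A processed pseudogene, Pgam1-ps2, held a mean of 9.11 CPM, and how reads were split between near-identical copies is uncertain.

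The 2 enolases also differed in direction. Eno1 (chr4:150236721-150248879), the widespread alpha isozyme, had 444, 382, 708 and 494 CPM in TdLN_CD40 libraries, 333, 291, 576 and 424 CPM in TdLN libraries and 209, 239, 329 and 329 CPM in Healthy_iLN libraries. Its TdLN_CD40 libraries lay above its Healthy_iLN libraries, with a rise of log2 fold change 0.87, SE 0.24, adjusted p = 0.0455 (0.000115 with the block, 0.000115 to 0.178 over alternatives). The call was kept in 3 of 12 fits that left out 1 library, and in 12 of 12 with the block. The block also called Eno1 for TdLN_CD40 over TdLN (log2 fold change 0.33, SE 0.10, adjusted p = 0.0414; 0.0414 to 0.913 over alternatives) and for TdLN over Healthy_iLN libraries (log2 fold change 0.53, SE 0.10, adjusted p = 0.0108; 0.0108 to 1), kept in 6 of 12 and 10 of 12 blocked fits that left out 1 library.

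Eno3, the beta isozyme best known from muscle, had 47.6, 87.5, 73.9 and 72.6 CPM in TdLN_CD40 libraries, 85.9, 111, 78.1 and 121 CPM in TdLN libraries and 107, 119.5, 87.1 and 105 CPM in Healthy_iLN libraries. It was lower in TdLN_CD40 libraries within every prefix, by log2 ratios of -1.17, -0.45, -0.24 and -0.53 to Healthy_iLN libraries, and single libraries overlapped. Without the block it was not called (adjusted p = 0.0972 against Healthy_iLN and 0.245 against TdLN), and with it the values were log2 fold change -0.59, SE 0.14, adjusted p = 0.017 against Healthy_iLN (0.017 to 0.254 over alternatives) and log2 fold change -0.49, SE 0.14, adjusted p = 0.0493 against TdLN libraries (0.0493 to 0.483). Against Healthy_iLN it was also called without the block on protein-coding transcripts alone. The blocked calls were kept in 11 of 12 fits that left out 1 library against Healthy_iLN and in 2 of 12 against TdLN. Of the TPM of both enolases, Eno3 made up 12.3% ± 3.28 in TdLN_CD40, 19.9% ± 6.27 in TdLN and 27.6% ± 6.38 in Healthy_iLN libraries.

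**Figure D4:**
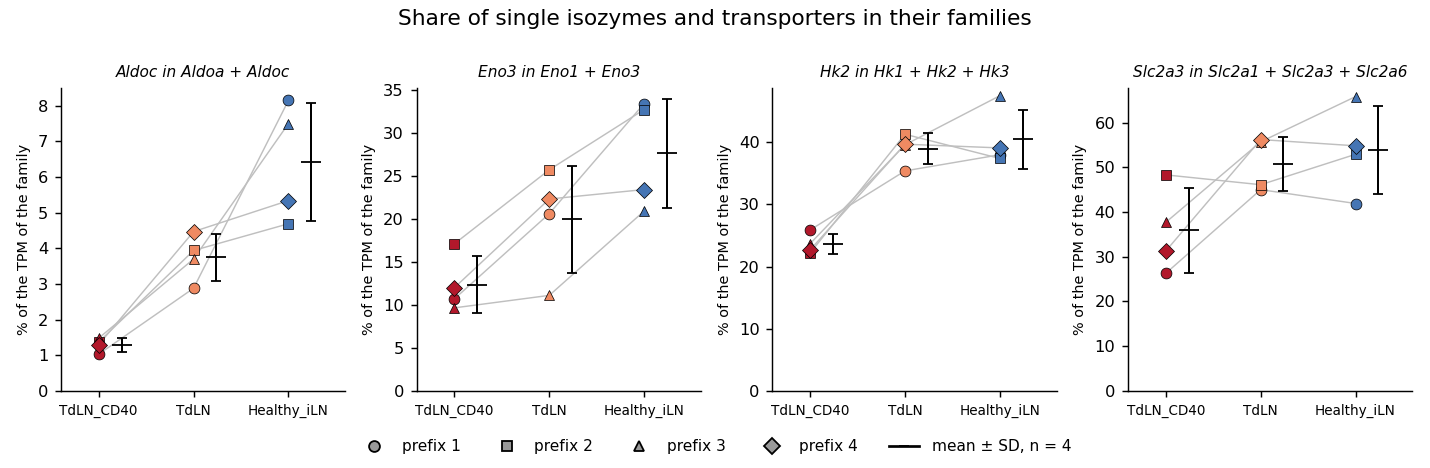
Share (%) of Aldoc, Eno3, Hk2 and Slc2a3 in the summed TPM of their families (vertical axes, from 0) in each library, with symbols for prefixes, grey lines joining a prefix and bars for mean ± SD (n = 4). The Aldoc share averages 1.3% in TdLN_CD40, 3.75% in TdLN and 6.42% in Healthy_iLN libraries, and the Hk2 share 23.6%, 39% and 40.5%.

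Pkm, the pyruvate kinase gene, had 637, 608, 971 and 748 CPM in TdLN_CD40 libraries, 472, 485, 909 and 723 CPM in TdLN libraries and 346, 396, 535 and 595 CPM in Healthy_iLN libraries. TdLN_CD40 libraries lay above Healthy_iLN libraries, and the block gave calls that the fit without it did not: log2 fold change 0.67, SE 0.10, adjusted p = 0.000695 for TdLN_CD40 (0.000695 to 0.405 over alternatives) and log2 fold change 0.44, SE 0.10, adjusted p = 0.0269 for TdLN over Healthy_iLN libraries (0.0269 to 1). They were kept in 12 of 12 and 5 of 12 blocked fits that left out 1 library, and prefixes 1 and 2 alone called TdLN_CD40 over Healthy_iLN without the block. Its transcripts carry 1 of 2 mutually exclusive exons of 167 bases. The exons are printed because they tell the M1 form (Pkm-202, chr9:59675029-59675195) from the M2 form (Pkm-201, chr9:59675568-59675734), the form of most proliferating cells. They are from GENCODE M21 on GRCm38, plus strand, with capitals at the 64 bases that differ.
Pkm-202: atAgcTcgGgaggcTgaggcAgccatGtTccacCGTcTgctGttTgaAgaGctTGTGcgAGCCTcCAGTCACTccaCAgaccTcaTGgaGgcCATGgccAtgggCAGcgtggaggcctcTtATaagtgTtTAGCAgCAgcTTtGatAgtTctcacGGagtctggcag
Pkm-201: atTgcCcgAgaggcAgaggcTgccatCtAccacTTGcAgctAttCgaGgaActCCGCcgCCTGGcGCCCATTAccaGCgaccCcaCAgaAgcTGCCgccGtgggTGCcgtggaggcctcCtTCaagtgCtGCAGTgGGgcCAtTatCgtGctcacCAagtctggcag
They share 61.7% of bases. The M1 form made up 10.4, 8.18, 9.85 and 5.69% of the TPM of both in TdLN_CD40, 10.1, 6.15, 6.94 and 7.55% in TdLN and 8.28, 6.3, 5.72 and 6.28% in Healthy_iLN libraries. The 3 groups overlapped, and the M2 form led in all 12 libraries. The 2 transcripts also differ in length, at 2041 bases (Pkm-202) and 2432 bases (Pkm-201), so these shares do not rest on the exon alone. Of all Pkm counts, 5.58% fell on Pkm-202 and 83.8% on Pkm-201, and other Pkm transcripts were left out of the shares.

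Lactate dehydrogenase A (Ldha), which turns pyruvate into lactate, was not called in any comparison and ranged over 296 to 436 CPM in TdLN_CD40, 303 to 505 CPM in TdLN and 212 to 339 CPM in Healthy_iLN libraries. Its log2 fold changes were -0.05 for TdLN_CD40 over TdLN (adjusted p = 0.977), 0.41 for TdLN over Healthy_iLN (adjusted p = 0.681) and 0.36 for TdLN_CD40 over Healthy_iLN (adjusted p = 0.451). TdLN libraries were higher than Healthy_iLN libraries in 4 of 4 prefixes, with TdLN replicate 3 the highest of all. Ldhb, the isozyme that favours the reverse reaction, was not called and stood at 4.18 to 9.31 CPM.

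Slc16a3 (chr11:120948480-120960868), which encodes the lactate exporter MCT4, had 25.03, 15.7, 28.1 and 19.8 CPM in TdLN_CD40 libraries, 15.04, 12.8, 32.6 and 14.2 CPM in TdLN libraries and 6.33, 9.83, 9.90 and 11.1 CPM in Healthy_iLN libraries. All TdLN_CD40 and all TdLN libraries lay above all Healthy_iLN libraries. The rise in TdLN_CD40 over Healthy_iLN libraries was log2 fold change 1.25, SE 0.29, adjusted p = 0.0177 (0.00122 to 0.16 over alternatives), kept in 9 of 12 fits that left out 1 library. Between TdLN and Healthy_iLN it was log2 fold change 1.01, SE 0.29, adjusted p = 0.238, and DESeq2 alone called it (adjusted p = 0.0426; 0.0426 to 0.876 over alternatives). TdLN replicate 3 was more than 2-fold above the other TdLN libraries. Slc16a1, which encodes the transporter MCT1, was not called.

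Pyruvate dehydrogenase kinases hold pyruvate back from the mitochondria. Pdk3 had 64.7, 66.4, 74.8 and 78.5 CPM in TdLN_CD40 libraries, 69.4, 60.3, 80.9 and 70.8 CPM in TdLN libraries and 57.2, 53.8, 64.01 and 57.1 CPM in Healthy_iLN libraries. TdLN_CD40 libraries lay above Healthy_iLN libraries by a small margin, and Pdk3 was called with the block and not without it, at log2 fold change 0.29, SE 0.07, adjusted p = 0.0103 for TdLN_CD40 (0.0103 to 0.932 over alternatives) and log2 fold change 0.27, SE 0.07, adjusted p = 0.0396 for TdLN over Healthy_iLN libraries (0.0396 to 1). Of blocked fits that left out 1 library, 10 of 12 and 3 of 12 kept the call. Pdk1, a textbook hypoxia target, was not called. It ranged over 30.2 to 43.5 CPM in TdLN_CD40, 27.8 to 52.02 CPM in TdLN and 29.3 to 53.9 CPM in Healthy_iLN libraries, and 79.7% of its variance went with the prefix.

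Hif1a (chr12:73901375-73947530) had 221, 229, 263 and 240.1 CPM in TdLN_CD40 libraries, 169, 176, 278 and 195 CPM in TdLN libraries and 135, 147, 167 and 144 CPM in Healthy_iLN libraries. Every tumor-draining library, with or without the agonist, lay above every Healthy_iLN library. The rise in TdLN_CD40 over Healthy_iLN libraries was log2 fold change 0.69, SE 0.16, adjusted p = 0.0164 (0.000197 to 0.11 over alternatives), with log2 ratios within prefixes of 0.71, 0.64, 0.66 and 0.74, and the call was kept in 8 of 12 fits that left out 1 library. The difference between TdLN and Healthy_iLN was called with the block (log2 fold change 0.45, SE 0.08, adjusted p = 0.0123; 0.0123 to 1 over alternatives), and there in 11 of 12 fits that left out 1 library. Between TdLN_CD40 and TdLN the log2 fold change was 0.22 (adjusted p = 0.671).

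Of the other hypoxia genes, Bnip3, a receptor for the removal of mitochondria, had 25.4, 16.05, 19.3 and 15.9 CPM in TdLN_CD40 libraries, 15.98, 13.03, 22.5 and 13.3 CPM in TdLN libraries and 13.9, 11.5, 13.8 and 13.5 CPM in Healthy_iLN libraries. TdLN_CD40 lay above Healthy_iLN libraries and was called with the block (log2 fold change 0.52, SE 0.14, adjusted p = 0.0174; 0.0174 to 0.419 over alternatives), and in 8 of 12 such fits that left out 1 library. Its relative Bnip3l was not called, at 95.2 to 123 CPM, nor was P4ha1, a collagen prolyl hydroxylase, at 31.0 to 61.3 CPM. Egln3 encodes a prolyl hydroxylase that marks the alpha subunit for destruction and is itself induced by hypoxia, and Vegfa encodes the growth factor for blood vessels. Neither was called, and both were high in the same libraries.

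Egln3 had 7.89, 0.792, 1.60 and 0.722 CPM in TdLN_CD40 libraries, 1.58, 0.889, 7.60 and 0.977 CPM in TdLN libraries and 0.586, 0.7, 0.841 and 0.939 CPM in Healthy_iLN libraries. Vegfa had 15.8, 6.78, 8.38 and 4.09 CPM in TdLN_CD40 libraries, 7.83, 7.22, 17.4 and 5.23 CPM in TdLN libraries and 5.50, 5.04, 3.73 and 3.57 CPM in Healthy_iLN libraries. Slc16a1 had 22.01, 9.94, 12.6 and 13.9 CPM in TdLN_CD40 libraries, 9.46, 10.6, 25.2 and 12.4 CPM in TdLN libraries and 9.14, 11.3, 13.9 and 12.5 CPM in Healthy_iLN libraries. All 3 genes were highest in TdLN_CD40 replicate 1 and TdLN replicate 3. These were also the libraries with the most keratin RNA: the sum of Krt8, Krt18 and Krt19, genes of epithelium, was 425, 48.1, 78.0 and 11.1 CPM in TdLN_CD40, 80.6, 49.2, 277 and 2.55 CPM in TdLN and 112, 64.1, 105 and 4.78 CPM in Healthy_iLN libraries. Healthy nodes held keratin too, and keratin was at 11.1 CPM or less in prefix 4 of each group.

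The whole epithelial list (Epcam, Krt8, Krt18, Krt19 and Cdh1, 5 of 5 detected) summed to 47.3 to 516 CPM in TdLN_CD40, 67.8 to 413 CPM in TdLN and 58.3 to 179 CPM in Healthy_iLN libraries, with none of the 5 at 0 throughout. Cdh1 was highest in the same 2 libraries as the keratins, at 72.5 CPM in TdLN_CD40 replicate 1 and 118 CPM in TdLN replicate 3. Its Healthy_iLN libraries held 19.4 to 38.7 CPM. Epcam, by contrast, stood at 11.9 to 18.3 CPM in TdLN_CD40, 16.9 to 26.6 CPM in TdLN and 23.8 to 36.1 CPM in Healthy_iLN libraries. The part of these cells in the values of the 33 genes was not tested. Without the 2 libraries, Egln3 had a log2 fold change of 0.57 between TdLN and Healthy_iLN, in place of 1.85, and Vegfa 0.60 in place of 1.08. TdLN replicate 3 was the highest TdLN library for both genes. Leaving it out had to lower these values, whatever its keratin level. Without the 2 libraries the 10 genes called between TdLN_CD40 and Healthy_iLN libraries were the same, Pfkfb3 was the only call between TdLN_CD40 and TdLN, and none passed between TdLN and Healthy_iLN. With the block and without them, 19 genes were called between TdLN_CD40 and Healthy_iLN libraries, 8 between TdLN_CD40 and TdLN and 1 (Hif1a) between TdLN and Healthy_iLN. These fits were chosen after the data were seen.

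**Figure D5:**
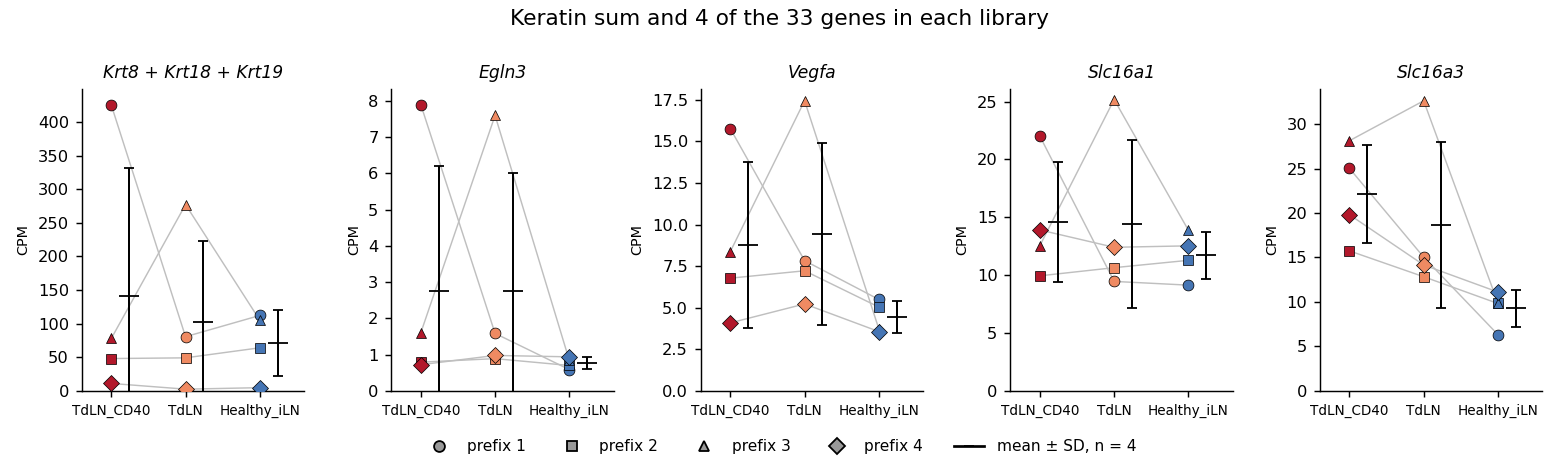
Summed CPM of 3 keratins and CPM of Egln3, Vegfa, Slc16a1 and Slc16a3 (vertical axes, from 0) in each library, with symbols for prefixes, grey lines joining a prefix and bars for mean ± SD (n = 4; lower ends below 0 are cut). TdLN_CD40 replicate 1 and TdLN replicate 3 are highest for the keratins, Egln3, Vegfa and Slc16a1, whereas all TdLN_CD40 libraries lie above all Healthy_iLN libraries for Slc16a3.

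Marker lists of dendritic cells and of other cells that a CD11c gate could hold were summed in each library. The mature dendritic cell list (5 of 5 genes detected) summed to 4095 to 6660.3 CPM in TdLN_CD40, 1590.1 to 2877 CPM in TdLN and 1867 to 3063 CPM in Healthy_iLN libraries, highest in all TdLN_CD40 libraries. The general dendritic cell list (Itgax, Flt3, Zbtb46, Cd74 and H2-Ab1) summed to 12169 to 18392 CPM in TdLN_CD40, 18046 to 30929 CPM in TdLN and 18189 to 29546 CPM in Healthy_iLN libraries. Itgax, Flt3 and Zbtb46 were each at 1129.7 CPM or less in every library. Most of the sum was therefore Cd74 and H2-Ab1, and it is not a measure of the number of dendritic cells. Flt3 stood at 324 to 543 CPM in TdLN_CD40, 525 to 832 CPM in TdLN and 589 to 821 CPM in Healthy_iLN libraries. Zbtb46 stood at 132 to 172, 159 to 203 and 176 to 213 CPM in the same order. For both, all TdLN_CD40 libraries lay below all Healthy_iLN libraries and overlapped TdLN libraries. With the block, 4 of the 5 genes were lower in TdLN_CD40 than in TdLN libraries, and 4 than in Healthy_iLN libraries. None was higher, and 6.58% and 8.46% of all genes were lower. The neutrophil list summed to 62.1 to 105 CPM in TdLN_CD40, 47.7 to 124 CPM in TdLN and 22.2 to 30.8 CPM in Healthy_iLN libraries, higher in every tumor-draining library. Of its 8 genes, Ly6g and Camp were at 0.108 CPM or less throughout, and 6 were tested. With the block, 6 of these 6 were higher in TdLN_CD40 and 4 in TdLN than in Healthy_iLN libraries, and none was lower. Of all genes, 11.7% and 4.02% were higher in these comparisons with the block, and 8.46% and 2.28% lower. Macrophage genes (8 of 8 detected) summed to 542 to 821 CPM in TdLN_CD40, 391 to 660.5 CPM in TdLN and 404 to 557 CPM in Healthy_iLN libraries, and monocyte genes (6 of 6) to 282 to 374 CPM in TdLN_CD40, 439 to 656 CPM in TdLN and 422 to 665 CPM in Healthy_iLN libraries. Calls were also counted within the lists. Without the block, 4.25% of all genes were higher and 2.03% lower in TdLN_CD40 than in Healthy_iLN libraries. The shares were 1.85% and 0.83% for TdLN_CD40 over TdLN, and 0.181% and 0.0169% for TdLN over Healthy_iLN libraries. Between TdLN_CD40 and Healthy_iLN libraries without the block, 4 of 5 mature dendritic cell genes rose, 5 of 8 macrophage genes rose and 1 fell, and 3 of the 6 neutrophil genes tested rose. Of the 6 monocyte genes, 1 rose and 2 fell. Of type 2 dendritic cell genes 3 of 6 fell (median log2 fold change -0.90), of type 1 genes 2 of 5 fell (-0.27) and of T cell genes 4 of 7 fell (-1.06). Some genes of these lists went the other way with the block. Type 2 genes were then 2 higher and 4 lower, type 1 genes 1 higher and 2 lower, and T cell genes 1 higher and 5 lower. The type 2 sum overlapped between groups, at 1074 to 1696 CPM in TdLN_CD40, 1332 to 2058 CPM in TdLN and 1073 to 1752 CPM in Healthy_iLN libraries. Of plasma cell genes 2 of 5 rose (1.27), as 2 of 5 did between TdLN and Healthy_iLN libraries (1.56). Between TdLN_CD40 and TdLN libraries 3 of 5 mature dendritic cell genes and 3 of 8 macrophage genes rose. There 3 of 6 type 2 and 1 of 5 type 1 dendritic cell genes fell, as did 2 of 6 monocyte genes. T cell sums were 226 to 516 CPM in TdLN_CD40, 359 to 757 CPM in TdLN and 437 to 696 CPM in Healthy_iLN libraries, and plasma cell sums 174 to 300.3 CPM in TdLN_CD40, 181 to 384 CPM in TdLN and 134 to 175 CPM in Healthy_iLN libraries. The part of a changed mix of cells in the values of the 33 genes was not tested.

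Summed over the 33 genes, their share of all counts was 0.591%, 0.549%, 0.664% and 0.6% in TdLN_CD40, 0.438%, 0.443%, 0.58% and 0.506% in TdLN and 0.4%, 0.439%, 0.449% and 0.469% in Healthy_iLN libraries. TdLN_CD40 libraries lay above Healthy_iLN libraries and, but for prefix 2, above the highest TdLN library.

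Other genes of the same and neighbouring pathways give the wider setting, with the same background shares of calls as above. Of 22 further hypoxia targets, all tested, 7 rose in TdLN_CD40 over Healthy_iLN libraries and none fell, with a median log2 fold change of 0.40, and 2 rose over TdLN libraries. With the block 8 were higher and 1 lower over Healthy_iLN libraries, 4 higher and 1 lower over TdLN libraries, and 2 higher in TdLN than in Healthy_iLN libraries. The lower gene in both was Tfrc, the transferrin receptor, named after its values were seen (blocked adjusted p = 0.0423 over Healthy_iLN and 0.00375 over TdLN libraries). Ndrg1, a stress-induced gene, averaged 176 ± 24.96 CPM in TdLN_CD40 and 90.01 ± 9.83 CPM in TdLN libraries (log2 fold change 0.97, SE 0.14, adjusted p = 0.00228), with means ± SD of 4 libraries here and for the genes that follow. Hmox1, which encodes heme oxygenase and also answers to oxidative stress, averaged 119.9 ± 51.4 CPM in TdLN_CD40 and 38.9 ± 6.68 CPM in TdLN libraries (log2 fold change 1.62, SE 0.23, adjusted p = 0.00244). These 2 were the ones called over TdLN libraries without the block. Over Healthy_iLN libraries both rose as well, by log2 fold changes of 1.27 and 1.79.

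The other 5 were called over Healthy_iLN libraries and, without the block, in no other comparison. With the block Plod1 was also called for TdLN_CD40 over TdLN (adjusted p = 0.00358), and Bhlhe40 (0.00861) and Ak4 (0.0137) for TdLN over Healthy_iLN libraries. Bhlhe40, a transcriptional repressor, averaged 177 ± 20.3 CPM in TdLN_CD40 and 74.2 ± 5.44 CPM in Healthy_iLN libraries (log2 fold change 1.26, SE 0.18, adjusted p = 0.000913). Plod1, a collagen lysyl hydroxylase, averaged 52.1 ± 9.71 CPM in TdLN_CD40 and 28.3 ± 2.25 CPM in Healthy_iLN libraries (log2 fold change 0.88, SE 0.16, adjusted p = 0.00332). Ddit4, an inhibitor of mTOR signaling, averaged 68.97 ± 31.3 CPM in TdLN_CD40 and 19.98 ± 8.94 CPM in Healthy_iLN libraries (log2 fold change 1.79, SE 0.38, adjusted p = 0.0127). Ak4, an adenylate kinase of mitochondria, averaged 1.58 ± 0.701 CPM in TdLN_CD40 and 0.292 ± 0.104 CPM in Healthy_iLN libraries (log2 fold change 2.40, SE 0.51, adjusted p = 0.0112). Nos2, the inducible nitric oxide synthase, averaged 9.13 ± 10.5 CPM in TdLN_CD40 and 0.35 ± 0.122 CPM in Healthy_iLN libraries (log2 fold change 4.71, SE 1.03, adjusted p = 0.0175), with an SD as large as its mean in TdLN_CD40 libraries.

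Of 16 tested genes among 20 other glycolysis genes, Adpgk, an ADP-dependent glucokinase, fell with the agonist, at 42.4 ± 6.39 CPM in TdLN_CD40 and 69.9 ± 9.61 CPM in TdLN libraries (log2 fold change -0.72, SE 0.16, adjusted p = 0.0229). With the block it was also lower in TdLN_CD40 than in Healthy_iLN libraries (adjusted p = 0.00389), and 3 of the 16 were higher and 2 lower there. Of 11 genes for pyruvate entry to mitochondria, Pdp1, the phosphatase that activates pyruvate dehydrogenase, fell relative to Healthy_iLN, at 8.55 ± 1.29 CPM in TdLN_CD40 and 12.7 ± 1.47 CPM in Healthy_iLN libraries (log2 fold change -0.57, SE 0.15, adjusted p = 0.0341). With the block 1 of the 11 was higher and 1 lower in TdLN_CD40 than in Healthy_iLN libraries. The higher gene was Mpc1, named after its values were seen (blocked log2 fold change 0.54, adjusted p = 0.000748). It was also higher in TdLN than in Healthy_iLN libraries with the block (adjusted p = 0.00546). Of 9 glycogen genes, Pygl, a glycogen phosphorylase, rose relative to Healthy_iLN, at 131 ± 16.5 CPM in TdLN_CD40 and 82.8 ± 13.3 CPM in Healthy_iLN libraries (log2 fold change 0.66, SE 0.16, adjusted p = 0.0274). The difference was there without the agonist too, at 135 ± 29.8 CPM in TdLN and 82.8 ± 13.3 CPM in Healthy_iLN libraries (log2 fold change 0.70, SE 0.16, adjusted p = 0.112), and was called there with the block (adjusted p = 0.0205).

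None of 7 genes of the pentose phosphate pathway and none of 13 other genes of the hypoxia-inducible factor pathway passed in any comparison without the block. With it, 3 of the 7 and 2 of the 13 were higher in TdLN_CD40 than in Healthy_iLN libraries and none was lower. Between TdLN and Healthy_iLN libraries, 2 of the 7 were higher and none lower, whereas 1 of the 13 was higher and 2 were lower. Between TdLN_CD40 and TdLN libraries, 1 of the 7 and 1 of the 13 were higher and none was lower.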

How the data were processed

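RNA of CD11c cells was extracted (Qiagen RNeasy Plus Micro) and made into libraries with the NEBNext Ultra II Directional kit, per the labels' protocols. The authors deposited a table of estimated counts and a table of TPM per transcript, made with Salmon on build mm10, per the submitters' processing notes, whereas the names of the tables refer to sailfish. The version, annotation, filters and use of strand were not given in the sources used here, so reads of antisense or overlapping genes may not be separated. Transcripts were summed to genes by GENCODE M21. The 400 transcripts without a match held 0.116 to 0.147% of counts and were left out.

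The deposited estimated counts, 32626784 to 56320661 per library, were rounded, filtered (filterByExpr, minimum 10) and tested over all 12 libraries with edgeR 4.0.16 (TMM, quasi-likelihood; R 4.3.3), with Benjamini-Hochberg adjustment over all genes. CPM are TMM-scaled. TPM, deposited by the authors, served for isozyme shares. A blocked fit used the title prefix, which the sources do not explain. Libraries that shared a prefix deviated together from their group means in all 12 pairs (correlations 0.20 to 0.47), so the prefix was taken to pair them. The 36 other pairs had a median correlation of -0.24. With each group centered on its own mean, positive same-prefix correlations push the other pairs to negative values. That median is therefore not separate evidence of pairing. The biological coefficient of variation was 33.9% without and 20.7% with the block. Alternatives used DESeq2 1.42.0, limma 3.58.1, other filters and left-out libraries. The scripts were tested on simulated data. The 33 genes and all lists were chosen with earlier results of these data known. Genes of the 33 were given in full where called with or without the block. Other genes were named where called without it, except Tfrc and Mpc1.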

Additional observations from a re-analysis of the deposited data

Results flagged for a closer look

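In 5 of 99 sets of 4 libraries (33 genes in 3 groups) 1 library lay so far from the other 3 that its gap to the nearest, divided by the range of the set, passed the 95% critical value of Dixon's test. Chance flags about 1 in 20 such sets. Pgk1 was high in TdLN replicate 3, at 269.7 CPM beside 164 to 168 CPM in the other TdLN libraries (ratio 0.949). Slc16a3 was high in the same library, at 32.6 CPM beside 12.8 to 15.0 CPM (ratio 0.830). In Healthy_iLN replicate 3 Pfkm was high, at 7.77 CPM beside 5.62 to 5.86 CPM (ratio 0.871). Healthy_iLN replicate 2 was low for P4ha1, at 31.1 CPM beside 42.9 to 45.7 CPM (ratio 0.832), and for Bnip3, at 11.51 CPM beside 13.5 to 13.9 CPM (ratio 0.858).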

How the results depend on the processing

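For each of the 33 genes called without the block, the log2 fold change in the comparison of that call kept its sign in the fits below. The replicate block, which compares libraries of a prefix, raised the number of the 33 genes called to 11 between TdLN_CD40 and TdLN (3 without it), 7 between TdLN and Healthy_iLN (0) and 18 between TdLN_CD40 and Healthy_iLN (10). It kept all 3 and all 10 of the calls made without it. Over all genes it raised the counts to 3161 (635), 1495 (47) and 4781 (1490). Leaving out 1 library gave 1 to 3, 0 to 0 and 3 to 11 of the 33 genes without the block, and 6 to 12, 0 to 9 and 16 to 20 with it, in the same order of comparisons (17 in the last without TdLN_CD40 replicate 2). Limma on log2(TPM + 1) called 0 between TdLN_CD40 and TdLN and 2 between TdLN_CD40 and Healthy_iLN libraries, and over all genes 289, 10 and 821. DESeq2 called 1 between TdLN and Healthy_iLN, and over all genes 393 there and 1182 between TdLN_CD40 and TdLN. Other counts over all genes between TdLN and Healthy_iLN were 1 with limma voom, 75 with no low-count filter and 18 with protein-coding transcripts alone, which gave 985 between TdLN_CD40 and TdLN. Prefixes 1 and 2 alone called 1 between TdLN_CD40 and TdLN, where the median log2 fold change was then 0.34, and prefixes 3 and 4 alone called 6 between TdLN_CD40 and Healthy_iLN libraries. Without the 2 libraries richest in keratin, the block called 8, 1 and 19 genes, and the fit without it 1, 0 and 10. The fits without those libraries, those on some prefixes, and those that left out 1 library under the block, were chosen after seeing the data. The causes of these differences were not tested.

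Counts are estimates that split reads between transcripts, so shares of transcripts and isozymes depend on that split. Groups of 4 libraries limit the precision, and genes below 10 CPM, such as Egln3, Pfkm and Ldhb, rest on the fewest counts.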
